A study of Mus musculus with 6 samples.

Results

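Basement membranes are thin sheets of matrix that underlie epithelia and surround muscle, fat and Schwann cells. Laminins, heterotrimers of an alpha, a beta and a gamma chain, polymerize at the cell surface. The nidogens Nid1 and Nid2 bind both the laminin gamma chain and type IV collagen, and perlecan, encoded by Hspg2, is a large proteoglycan that carries heparan sulphate chains and binds growth factors. Fibroblasts make many of these proteins and release them into the medium or the matrix below them.

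The 9 genes described here are laminin chains (Lama1, Lama2, Lama4, Lama5, Lamb2 and Lamc1), both nidogens and perlecan, taken by their symbols from a table of 23420 genes. All 9 passed the filter on low counts and were among 13044 genes tested. RNA was sequenced from mouse embryonic fibroblasts of a mixed 129/Sv-C57BL/6 background that carry the adenoviral oncogene E1A and the activated Ras gene HrasG12V. The cells were in 5% oxygen for 24 h before harvest. The study compared 2 groups of 3 libraries: sgNTC, whose guide RNA has no target and whose p53 is wild-type, and sgp53(1), which carries 1 guide against p53. Each of 3 lines gave a library to both groups. With the p53 guide, lines 1 and 3 are labelled p53 null, and line 2 is labelled functionally inactive. All groups therefore share both oncogenes, the strain and the oxygen level, and differ in the guide. The labels do not say that the lines came from separate embryos, so p-values measure the spread between these lines.

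Library totals lay between 27503577 and 35860866 counts. Levels are CPM, a gene's counts scaled to the normalized total of its library, and per-library values follow the order line 1, line 2, line 3. Gene coordinates are those of RefSeq on GRCm38.p6. Trp53, the targeted gene, was at 206, 277 and 253 CPM in the sgNTC libraries and at 71.1, 72.0 and 113 CPM in the sgp53 libraries, so the groups did not overlap. Of 10 fibroblast markers, Vim was between 2502 and 3354 CPM and Twist1 between 53.3 and 80.9 CPM in every library, while Lum was at 0 in 5 libraries and at 0.0351 CPM in sgp53 line 3. Of the 9 fibroblast markers tested, 3 were called higher and 0 lower, beside 2.76% and 3.69% of all tested genes. Those called were the collagens Col1a1, Col1a2 and Col3a1, which recur in a list below. The markers' median log2 fold change was 3.73, with within-line medians of 1.56, 0.60 and 5.36. S100a4, Thy1 and Dcn were at 99.4, 53.9 and 8.35 CPM in sgp53 line 3 and at no more than 15.8, 4.30 and 0.639 CPM in the other libraries, and none of them was called. The summed fibroblast markers, mostly Vim, were between 2877 and 3457 CPM in sgNTC and between 3089 and 5321 CPM in sgp53. Of 8 endothelial markers, 7 were under 1 CPM in every library. Of 8 epithelial markers, Krt5 was at 0 throughout. Krt18 was between 185 and 542 CPM in sgNTC and between 47.4 and 93.3 CPM in sgp53. The summed list, mostly Krt18 in sgNTC, was between 294 and 689 CPM there and between 116 and 165 CPM in sgp53. Of 5 tested, 0 were called higher and 1, Krt18, lower, beside the same shares of all tested genes. The log2 fold change was negative for 4 and positive for 1, Cdh1, at means of 3.46 CPM in sgNTC and 3.69 CPM in sgp53. The summed smooth muscle and pericyte markers, mostly Acta2 and Tagln, were between 37.7 and 131 CPM in sgNTC and between 777 and 1161 CPM in sgp53. Of 7 tested, 4 were called higher and 0 lower, beside the same shares of all tested genes. Des went the other way, from a mean of 1.37 to 0.470 CPM without overlap, and was not called. The part of these markers in the results below was not tested. In such bulk libraries, fewer cells of a type and less RNA per cell cannot be told apart.

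Perlecan was the one member whose RNA passed the test. The fit was the quasi-likelihood test of edgeR across all genes, and calls were made where the p adjusted by Benjamini-Hochberg was under 0.05. Of the 9 members, 1 was called higher in sgp53 and 0 lower, against a background of 6.45% of all tested genes called in either direction, 2.76% higher and 3.69% lower. At an unadjusted p under 0.05 there were 4 members (Hspg2, Lama2, Lama5 and Lamb2), beside 29.0% of all tested genes. The median log2 fold change was 0.43 over the members and -0.01 over all genes tested; within lines 1, 2 and 3 the members' median difference was 0.12, 0.30 and 0.53. The groups did not overlap in 3 members that were higher (Lama2, Lamb2, Hspg2) and 2 that were lower (Lama5, Lamc1), beside 17.8% and 19.0% of all tested genes. Lama2, at 20, 18 and 6 counts in sgNTC, passed the filter on low counts only with its sgp53 libraries included. Its place in these counts is therefore no support for a rise. An exact permutation test of 1 gene cannot go below 0.1 at this group size.

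**Figure D1:**
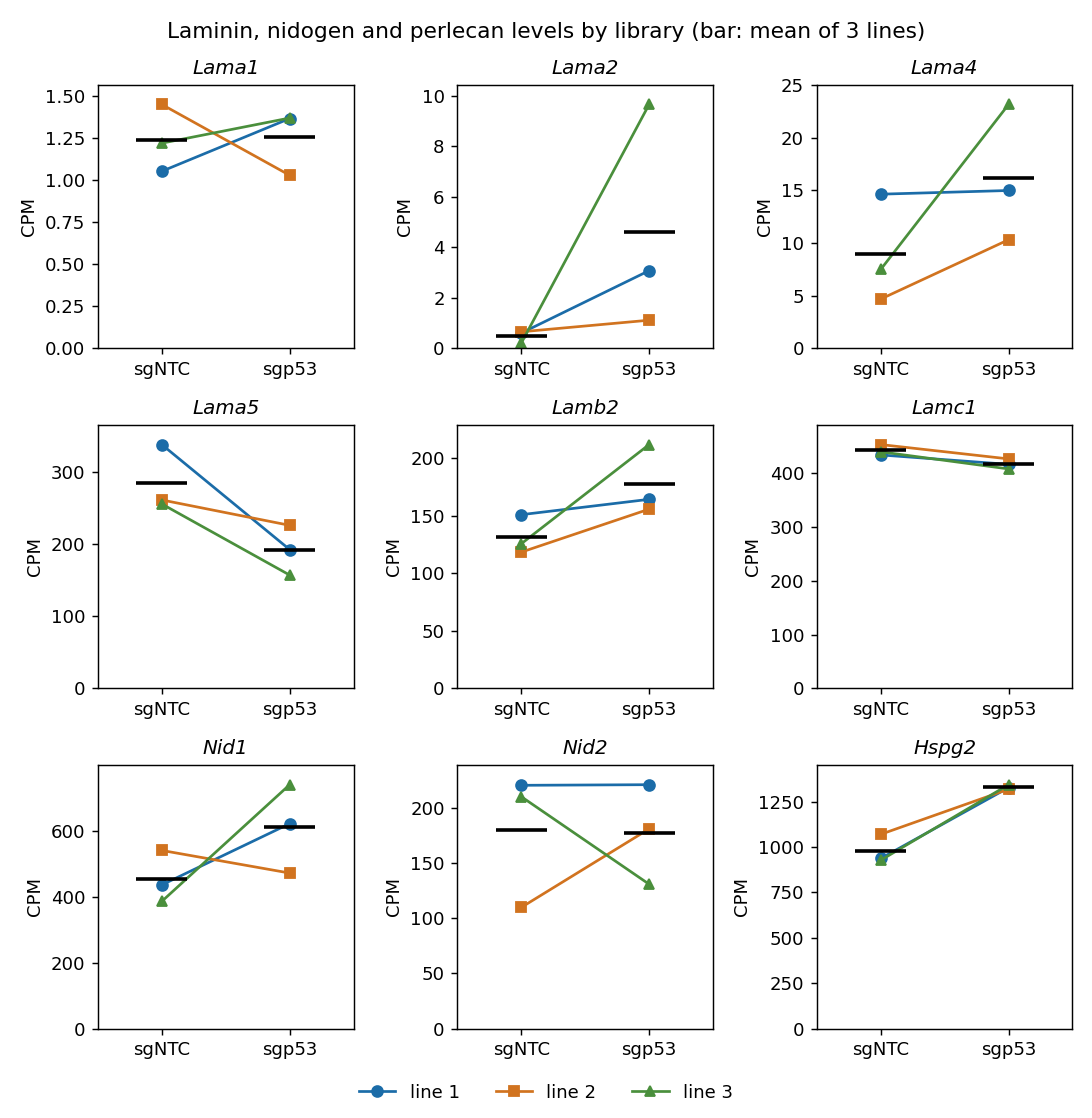
Level of each member in CPM (y axis, from 0) in the sgNTC and sgp53 library of each line (points joined by line; black bars are means of 3 libraries). The 3 sgp53 values of Hspg2 lie together between 1318 and 1343 CPM, above every sgNTC value, while the lines of Nid1, Nid2 and Lama1 cross.

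Hspg2 (chromosome 4, 137468751 to 137570630) encodes the perlecan core protein. It was at 937, 1070 and 927 CPM in the sgNTC libraries and at 1327, 1318 and 1343 CPM in sgp53. The sgp53 libraries were all higher than the sgNTC libraries and differed little among themselves (mean 1329 ± 12.6 CPM, against 978 ± 79.7 CPM; SD, n = 3 each). Perlecan RNA rose 1.36-fold (log2 fold change 0.44 with an SE of 0.07, adjusted p = 0.0222 in edgeR). The differences within lines 1, 2 and 3 were 0.50, 0.30 and 0.53 on the log2 scale.

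The perlecan call held in 8 of 16 alternative settings. With the line as a block the edgeR adjusted p was 0.0676, and no member was called, against 2.38% of all genes in that fit. The call was also lost without sgNTC line 3 (0.0956), sgp53 line 1 (0.0801), sgp53 line 2 (0.0507) or sgp53 line 3 (0.0565), and without line 1 (0.146), line 2 (0.0512) or line 3 (0.187). DESeq2 gave an adjusted p of 6.75e-08 and limma-voom 0.0221. Across all 16 alternatives the log2 fold change lay between 0.40 and 0.53.

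**Figure D2:**
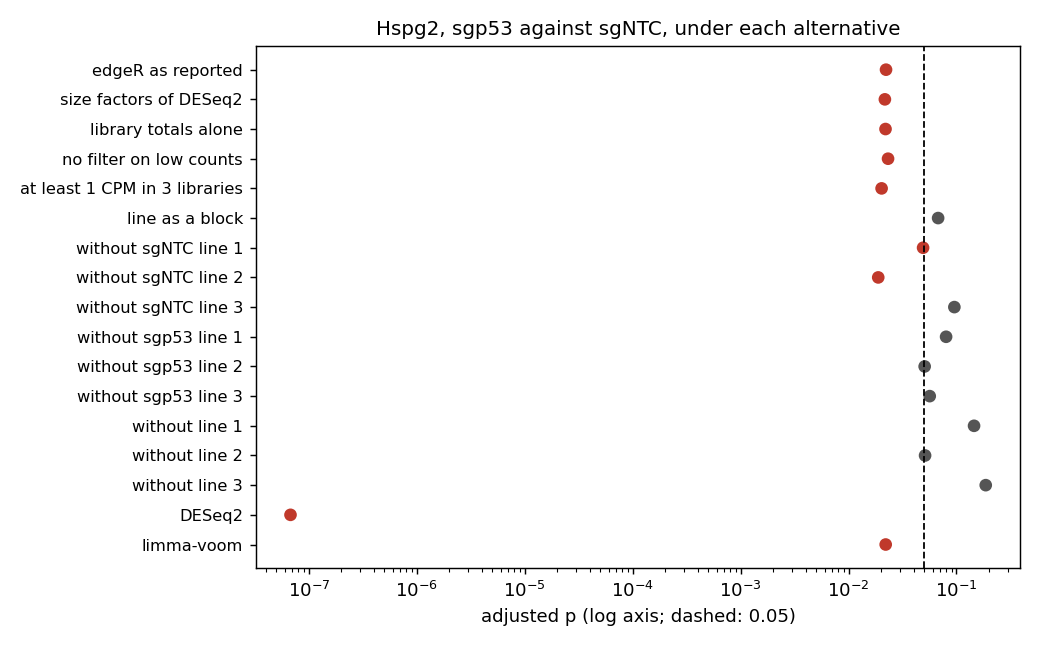
Adjusted p of Hspg2 (x axis, log scale; dashed line at 0.05) in the fit reported and in each of 16 alternatives (y axis; red points are under 0.05). Most alternatives lie close to the threshold, from 0.0188 without sgNTC line 2 to 0.187 without line 3, and DESeq2 stands far below at 6.75e-08.

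The stretch upstream of Hspg2 is shown because this gene carries the call, beside that of Lama5, the member with the most negative fold change. Promoter windows, of 250 bases before to 50 after a start site, were found for 5 of the 9 members in RefSeq sequences of GRCm38.p6. The runs below hold the bases before every RefSeq start of the gene, 5′ to 3′ on the gene's strand, with GC boxes (GGGCGG on either strand, the motif that Sp1 family factors bind) in capitals. Windows and motifs were chosen after the values of the genes were known. The first is chr4:137468553-137468750 on the plus strand and the second chr2:180225905-180226109 on the minus strand.
Hspg2: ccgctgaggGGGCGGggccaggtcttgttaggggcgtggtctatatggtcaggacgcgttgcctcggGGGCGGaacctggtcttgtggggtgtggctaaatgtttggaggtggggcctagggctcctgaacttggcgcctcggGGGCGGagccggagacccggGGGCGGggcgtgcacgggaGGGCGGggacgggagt
Lama5: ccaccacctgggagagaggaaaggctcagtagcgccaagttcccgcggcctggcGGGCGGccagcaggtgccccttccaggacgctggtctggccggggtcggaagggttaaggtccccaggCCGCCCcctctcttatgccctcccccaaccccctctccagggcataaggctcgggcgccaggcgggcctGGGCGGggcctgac

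The whole windows of Hspg2 and Lama5 held 5 and 4 GC boxes, with a GC content of 70.3% and 72.7%. Those of Nid1 and Lama2 held 1 each and that of Lamb2 held 0, and 35.7% of all 32851 windows of this length held at least 1. None of the 5 windows held a TATA box (TATAAA, either strand; 13.6% of all windows) or an AP-1 site (TGANTCA; 7.81%). A p53 half-site was found in the window of Nid1 alone (8.36% of all windows). A match is a run of letters and shows no binding.

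The alpha chains give each laminin its cell-binding globular end, and the sign of their differences was not shared. Lama5 (chromosome 2, 180176373 to 180225904) encodes the alpha chain of the laminins most common in adult basement membranes. It was at 337, 261 and 255 CPM in the sgNTC libraries and at 192, 226 and 157 CPM in sgp53. Every sgp53 library was below every sgNTC library. The log2 fold change was -0.57 (SE 0.16), and the difference was not called (edgeR adjusted p = 0.0838; 0.00683 to 0.278 over the alternatives, of which DESeq2 alone called it).

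Lama2 (chromosome 10, 26981285 to 27617191), the alpha chain of muscle and nerve basement membranes, had the widest range. It was at 0.601, 0.652 and 0.203 CPM in the sgNTC libraries (20, 18 and 6 counts) and at 3.07, 1.11 and 9.65 CPM in sgp53 (90, 40 and 275 counts). All sgp53 libraries were above all sgNTC libraries, and sgp53 line 3 held the largest value. The log2 fold change was 3.23 (SE 0.88, edgeR adjusted p = 0.0757). Leaving out sgp53 line 3 gave 2.10, and leaving out both libraries of line 3 gave 1.73, with edgeR adjusted p-values of 0.144 and 0.281. The sgp53 library of line 3 stood apart in other respects too: Rn45s, the ribosomal RNA precursor, was at 3338 CPM there and between 636 and 864 CPM in the other libraries, and its part in these values was not tested. Among the fibroblast markers above, S100a4, Thy1 and Dcn were also highest in sgp53 line 3, while Vim and Twist1 were not. Their part in the Lama2 values was not tested. Muscle and Schwann cells typically make this chain. The summed skeletal muscle markers were at most 0.339 CPM in sgNTC and between 0.922 and 1.92 CPM in sgp53, with Myf5 and Pax7 at 0. Acta1, named after its values were seen, made up most of the sgp53 sums, at 0.717, 1.81 and 1.37 CPM, and was not called. Myod1, Myog and Myh3 were each at no more than 0.211 CPM in any library. The summed Schwann cell and neural crest markers were between 5.98 and 11.7 CPM in sgNTC and between 6.90 and 8.34 CPM in sgp53, with Foxd3 at 0.

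Lama4 (chromosome 10, 38965515 to 39110188), a chain typical of vessels and mesenchyme, was at 14.6, 4.67 and 7.48 CPM in the sgNTC libraries and at 15.0, 10.3 and 23.2 CPM in sgp53. The groups overlapped, and line 1 hardly differed (0.03 on the log2 scale, against 1.13 and 1.62 in lines 2 and 3). The log2 fold change was 0.85 (SE 0.47, edgeR adjusted p = 0.279) and was between 0.39 and 1.46 when libraries or lines were left out. The summed endothelial markers were between 2.07 and 2.77 CPM in sgNTC and between 1.72 and 2.32 CPM in sgp53. Lama1 (chromosome 17, 67697127 to 67822645), the alpha chain of the earliest embryonic basement membranes, was low in all libraries, between 1.03 and 1.45 CPM (35 to 40 counts). Its log2 fold change was 0.02 (SE 0.26, edgeR adjusted p = 0.972), and it turned negative with library totals alone as the scaling (-0.029). The summed markers of parietal and visceral endoderm, tissues rich in this chain, were between 50.5 and 119 CPM in sgNTC. In sgp53 they were between 74.3 and 117 CPM, with Sox17 at 0 throughout. Of 5 tested, 2 had a positive and 3 a negative log2 fold change, and 0 were called. Gata4 fell from a mean of 27.5 to 10.9 CPM and Thbd rose from 6.97 to 25.9 CPM, both without overlap. Afp also fell without overlap, from a mean of 0.425 to 0.113 CPM. Over all tested genes, 17.8% were higher and 19.0% lower without overlap. Afp, Ttr and Foxa2 were each at no more than 1.68 CPM in any library.

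Of the beta and gamma chains, Lamb2 was the more variable. Lamb2 (chromosome 9, 108479847 to 108490530), the beta chain of synaptic and kidney basement membranes, was at 151, 118 and 125 CPM in the sgNTC libraries and at 164, 156 and 212 CPM in sgp53. All sgp53 values were above all sgNTC values, with the highest in line 3. The log2 fold change was 0.43 (SE 0.14; adjusted p = 0.115 in edgeR), 0.28 without sgp53 line 3 and 0.25 without line 3. DESeq2 called Lamb2 (adjusted p = 0.0301), as it did Lama2 (0.00148) and Lama5 (0.00683), so that it called 4 members, against 18.2% of all genes; limma-voom called 1, against 5.35%.

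Lamc1 (chromosome 1, 153218922 to 153332786) encodes the gamma chain shared by most laminins, the one that nidogen binds. It was the steadiest member, at 434, 453 and 439 CPM in the sgNTC libraries and at 416, 426 and 408 CPM in sgp53. The sgp53 values were lower without overlap, by little (log2 fold change -0.09 with an SE of 0.05, adjusted p = 0.281 in edgeR). Genes near the members were examined after the values had been seen. The 43 tested genes within 5 Mb of Lamc1 had a median log2 fold change of -0.26, and their median level stood 0.30 above their own mean over libraries in sgNTC line 2 and 0.14 above it in sgNTC line 3 (log2). For the other 8 members the neighbours' median log2 fold change was between -0.08 and 0.09. Single libraries departed there too. The neighbours of Nid2 stood 0.20 below their own mean in sgNTC line 1, and those of Lama2 0.11 below it in sgNTC line 2. The part of the neighbourhood in the values of Lamc1 and the other members was not tested.

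The sign of the nidogen differences was not the same in all 3 lines. Nid1 (chromosome 13, 13437602 to 13512275) was at 436, 540 and 386 CPM in the sgNTC libraries and at 621, 472 and 740 CPM in sgp53. It was higher in the sgp53 library of lines 1 and 3 and lower in that of line 2, and the groups overlapped (log2 fold change 0.43 with an SE of 0.19, adjusted p = 0.195 in edgeR), and the fold change was 0.16 on that scale without line 3. Nid2 (chromosome 14, 19751257 to 19811787) was at 220, 110 and 210 CPM in the sgNTC libraries and at 221, 181 and 131 CPM in sgp53. The sgp53 minus sgNTC difference was 0.00, 0.72 and -0.68 on the log2 scale in lines 1, 2 and 3, and the log2 fold change was -0.02 (SE 0.30, edgeR adjusted p = 0.969). Nid2 turned positive in the blocked fit (0.013). Exons of Nid2 share 437 bases with Rtraf on the opposite strand, which had 2429 to 4011 counts, and how the counting treated strand is not given in the sources used here.

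**Figure D3:**
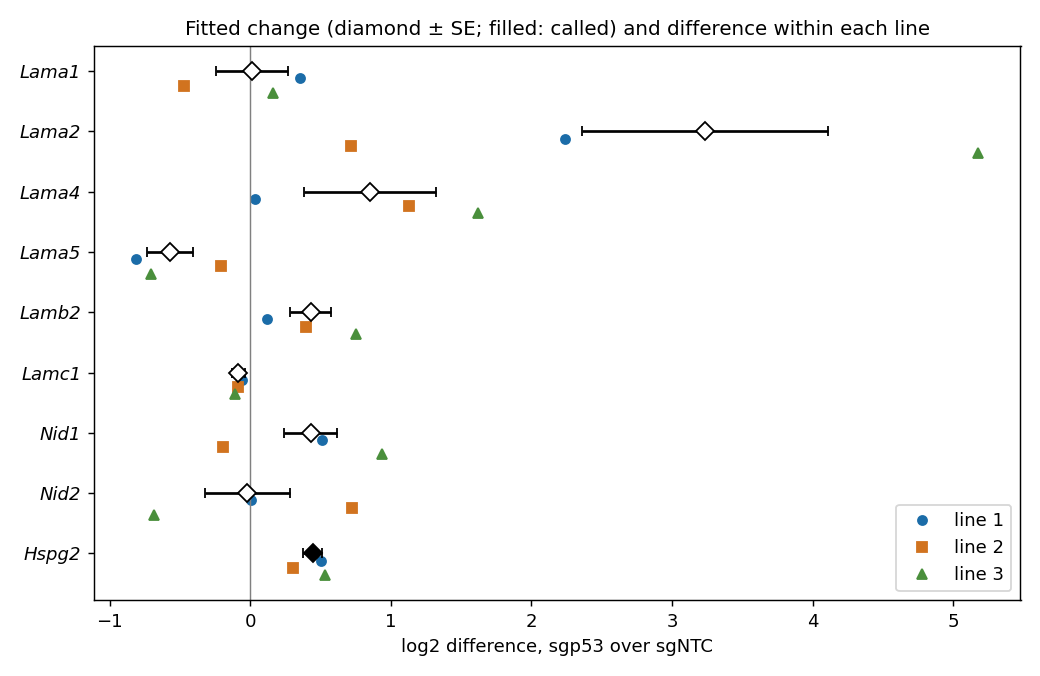
Log2 difference of sgp53 over sgNTC (x axis) for each member (y axis): diamonds are the edgeR fold change with its SE, filled for the called gene, and coloured symbols are the differences within lines 1, 2 and 3. The symbols of Hspg2 and Lamc1 lie close together, while those of Nid2 fall on both sides of 0 and those of Lama2 run from 0.71 to 5.18.

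Levels of different genes were compared per length, as CPM per kb of annotated exon. In sgNTC the order was Hspg2 (68.3 ± 5.57 CPM per kb), Nid1 (65.4 ± 11.4), Lamc1 (53.4 ± 1.20), Nid2 (34.8 ± 11.8), Lama5 (25.0 ± 4.03), Lamb2 (21.6 ± 2.81), Lama4 (0.740 ± 0.426), Lama1 (0.128 ± 0.0206) and Lama2 (0.0297 ± 0.0150; SD, n = 3 each). The ranges overlapped between Hspg2 and Nid1, between Nid2 and Lama5, and between Lama5 and Lamb2, so these neighbours had no clear order. In sgp53 the order was Hspg2 (92.9 ± 0.880 CPM per kb), Nid1 (88.0 ± 19.3), Lamc1 (50.4 ± 1.13), Nid2 (34.3 ± 8.73), Lamb2 (29.1 ± 4.96), Lama5 (16.8 ± 3.02), Lama4 (1.34 ± 0.539), Lama2 (0.282 ± 0.274) and Lama1 (0.130 ± 0.0202). Here Lamb2 stood above Lama5 without overlap, while Hspg2 and Nid1, Nid2 and Lamb2, and Lama2 and Lama1 overlapped.

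A laminin trimer takes 1 chain of each class, and RNA for the alpha class was the scarcest. The 5 alpha chains summed to 25.9 ± 4.42 CPM per kb in sgNTC and 18.6 ± 2.21 in sgp53. The 3 beta chains, Lamb1 included, summed to 65.7 ± 3.93 and 79.7 ± 15.0 CPM per kb, and the gamma chains Lamc1 and Lamc3 to 53.5 ± 1.20 and 50.4 ± 1.13 CPM per kb. In every library the alpha sum was below the gamma sum, which was below the beta sum.

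Lama5 made up most of the alpha chain RNA in all libraries. Its share of the length-scaled sum was 95.5%, 97.4% and 96.6% in the sgNTC libraries and 91.3%, 94.9% and 83.7% in sgp53. The sgp53 shares were all lower, by 6.56 percentage points on average (96.5 ± 0.944% against 90.0 ± 5.74%). Lama4 made up 2.75 ± 1.13% of the alpha RNA in sgNTC and 7.50 ± 3.84% in sgp53, and Lama2 0.114 ± 0.0583% and 1.65 ± 1.72%. For each of these 3 chains the two-sided exact permutation p was 0.1, the smallest that this design allows, and 0.167 after Benjamini-Hochberg adjustment over 5 chains. Without sgp53 line 3 the differences were -3.41 points for Lama5, 2.66 for Lama4 and 0.558 for Lama2. Lama1 and Lama3 each stayed under 1% in every library.

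**Figure D4:**
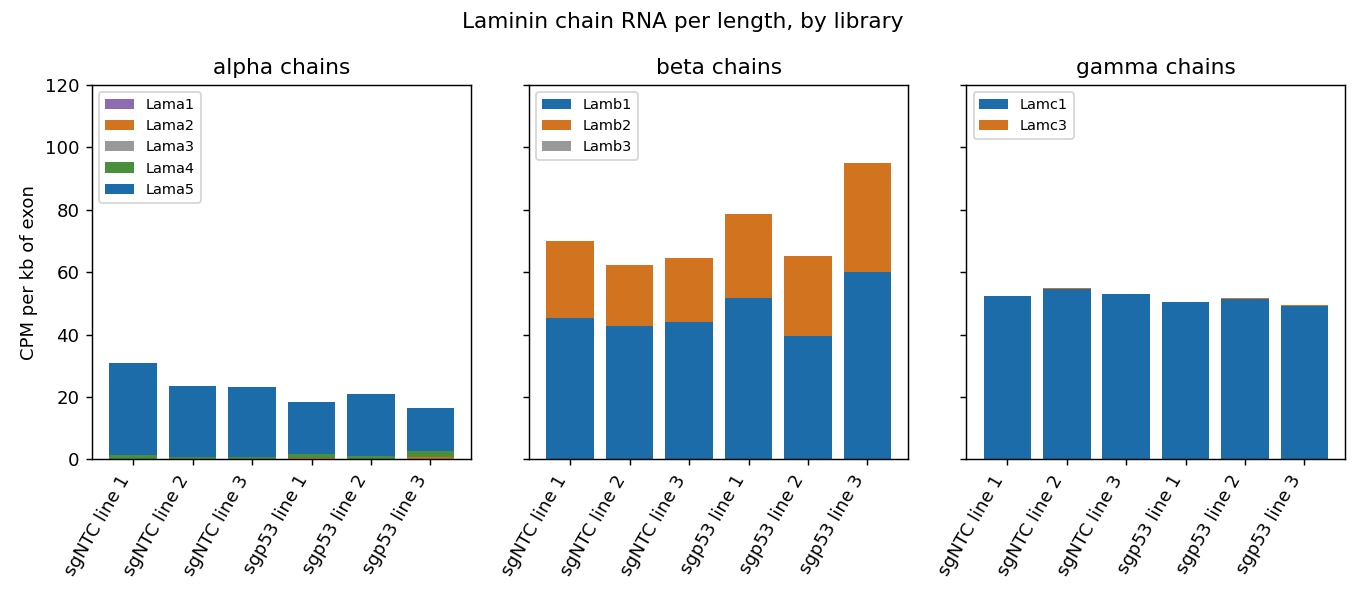
RNA of laminin chains in CPM per kb of exon (y axis, from 0), stacked by chain, in each library (x axis), for the alpha, beta and gamma classes. The alpha bars, nearly all Lama5, are the shortest in every library, the gamma bars, nearly all Lamc1, are almost level, and the beta bar is tallest in sgp53 line 3.

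Other genes of the basement membrane, its receptors and its enzymes were read from 7 lists that together hold 105 genes, of which 103 had a row and 90 were tested. EdgeR called 6 higher and 4 lower, 11.1% of those tested, beside 6.45% of all tested genes (2.76% higher, 3.69% lower). Of these 10 calls, 5 were among the 13 tested proteases (38.5%), and the share called in each other list was between 0 and 13.3%. The lists were chosen with earlier results of these data known, so the shares called in them are a description only. Another list, of interstitial matrix genes, served for comparison. Among 4 other laminin chains, 2 were tested and 0 were called (0 with DESeq2 or limma-voom, and 0 at an unadjusted p under 0.05). Lamb1, the widely expressed beta chain, was at 437 ± 11.5 and 501 ± 103 CPM, and Lama3, a chain of epithelial laminin, at 0.290 ± 0.0491 and 0.358 ± 0.0831 CPM. Of 7 tested genes for collagens IV, XV and XVIII and the crosslinking peroxidase Pxdn, edgeR and limma-voom called 0 and DESeq2 1, beside 18.2% of all genes with DESeq2. An unadjusted p under 0.05 was found for 2 of these 7, beside 29.0% of all genes. The type IV collagen chains Col4a1 and Col4a2, which form the other network of the sheet, overlapped between the groups. Col4a1 was at 587, 223 and 401 CPM in the sgNTC libraries and at 562, 517 and 470 CPM in sgp53, and Col4a2 at 411, 153 and 279 CPM and at 400.4, 407 and 312 CPM.

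Among 15 other tested basement membrane proteins, 2 were higher and 0 lower (1 higher in the blocked fit). This was 13.3% called, beside 6.45% of all tested genes, of which the blocked fit called 2.38%. Fras1, a large protein that anchors epidermis to dermis in the embryo, rose from 0.437 ± 0.0951 to 2.20 ± 0.409 CPM (2.33 on the log2 scale, with an SE of 0.29, edgeR adjusted p = 0.0129). Ntn1, the laminin-related guidance cue netrin-1, rose from 8.13 ± 4.66 to 35.2 ± 3.64 CPM (2.11 on the log2 scale, with an SE of 0.45; with the block, edgeR adjusted p = 0.0743). Of 17 laminin receptor genes, 1 was lower and 0 higher (0 in the blocked fit), or 5.88% called, near the share of all tested genes. Bcam, the Lutheran glycoprotein that binds the Lama5 chain, fell from 19.5 ± 1.96 to 6.28 ± 2.37 CPM (-1.63 on the log2 scale, with an SE of 0.27; with the block, edgeR adjusted p = 0.0501). Of 16 genes for the glycosylation of the laminin receptor dystroglycan, 1 was higher and 0 lower (0 in the blocked fit). The share called, 6.25%, was again near that of all tested genes. Pomt1, which adds the first mannose, rose from 43.0 ± 1.56 to 56.1 ± 1.05 CPM (0.39 on the log2 scale, with an SE of 0.06; with the block, edgeR adjusted p = 0.0659).

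Of 20 tested genes that build or edit heparan sulphate, the chain that perlecan carries, 1 was lower and 0 higher. Without the block this was 5% called, beside 6.45% of all tested genes. The blocked fit had 1 lower and 1 higher, beside 2.38% of all genes in that fit. Sulf2, an extracellular enzyme that removes sulphate groups from these chains, fell from 309 ± 77.9 to 36.4 ± 9.34 CPM (-3.08 on the log2 scale, with an SE of 0.25; adjusted p = 0.00344, edgeR). The gene added by the block was Hs3st3b1, a sulphotransferase, named after its values were seen (1.19 ± 0.582 and 4.54 ± 2.29 CPM, blocked edgeR adjusted p = 0.0475, and 0.0682 with no block). Of 13 tested proteases that can cleave basement membrane proteins, 3 were higher and 2 lower (2 and 1 in the blocked fit). This was 38.5% called, against the same 6.45% of all tested genes. Adamts5, which cleaves proteoglycans, rose from 0.830 ± 0.515 to 11.1 ± 3.66 CPM (3.72 on the log2 scale, with an SE of 0.49). Adamts1, of the same family, rose from 14.1 ± 4.24 to 45.8 ± 9.94 CPM, with an edgeR adjusted p of 0.0671 in the blocked fit. Mmp15, a membrane-bound metalloprotease, fell from 3.18 ± 0.829 to 0.621 ± 0.0841 CPM (-2.35 on the log2 scale, with an SE of 0.29). The other two, named after their values were seen, were Tll1, of the tolloid family, which rose from 4.54 ± 1.27 to 14.7 ± 4.49 CPM, and Plau, urokinase, which fell from 171 ± 33.4 to 99.1 ± 3.21 CPM, with an edgeR adjusted p of 0.0659 in the blocked fit.

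Calls in these lists and over all genes depended on which libraries were kept. Of the 16 alternatives, Sulf2 was called in 14, Mmp15 in 12, Fras1 and Adamts5 in 11 each, Bcam, Adamts1, Tll1 and Plau in 9 each, Ntn1 in 8 and Pomt1 in 7. With the interstitial list included, the 8 lists held 15 calls, beside 841 over all genes tested. These became 9 beside 293 without sgNTC line 2, 6 beside 133 without sgNTC line 3 and 3 beside 146 without sgp53 line 1. They became 19 beside 700 without sgNTC line 1, 12 beside 374 without sgp53 line 2 and 13 beside 342 without sgp53 line 3. Without line 1, 2 or 3 the lists held 0, 3 and 0 calls. Those fits have 2 libraries a group, and these counts alone do not tell a loss in the lists from a loss over all genes.

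For comparison, the 9 interstitial collagen and fibronectin genes, all tested, had 5 higher and 0 lower, beside 2.76% and 3.69% of all tested genes, with a median log2 fold change of 3.25 (0.43 for the 9 laminin, nidogen and perlecan genes). The list's median difference was 2.45, 2.00 and 4.56 within lines 1, 2 and 3, so it was largest in line 3, whose sgp53 library stood apart in Rn45s. The 5 calls became 5, 2 and 3 without sgNTC line 1, 2 or 3. They became 2, 6 and 5 without sgp53 line 1, 2 or 3, and 0, 2 and 0 without line 1, 2 or 3. Here too, the fits without a line do not tell a loss in this list from a loss over all genes. Col5a1, Col1a1 and Col1a2, chains of fibrillar collagens, had log2 fold changes of 1.20, 5.68 and 5.16, and of 1.21, 5.14 and 4.18 without sgp53 line 3. The difference between the lists was not tested, and the lists were chosen with earlier results of these data known.

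**Figure D5:**
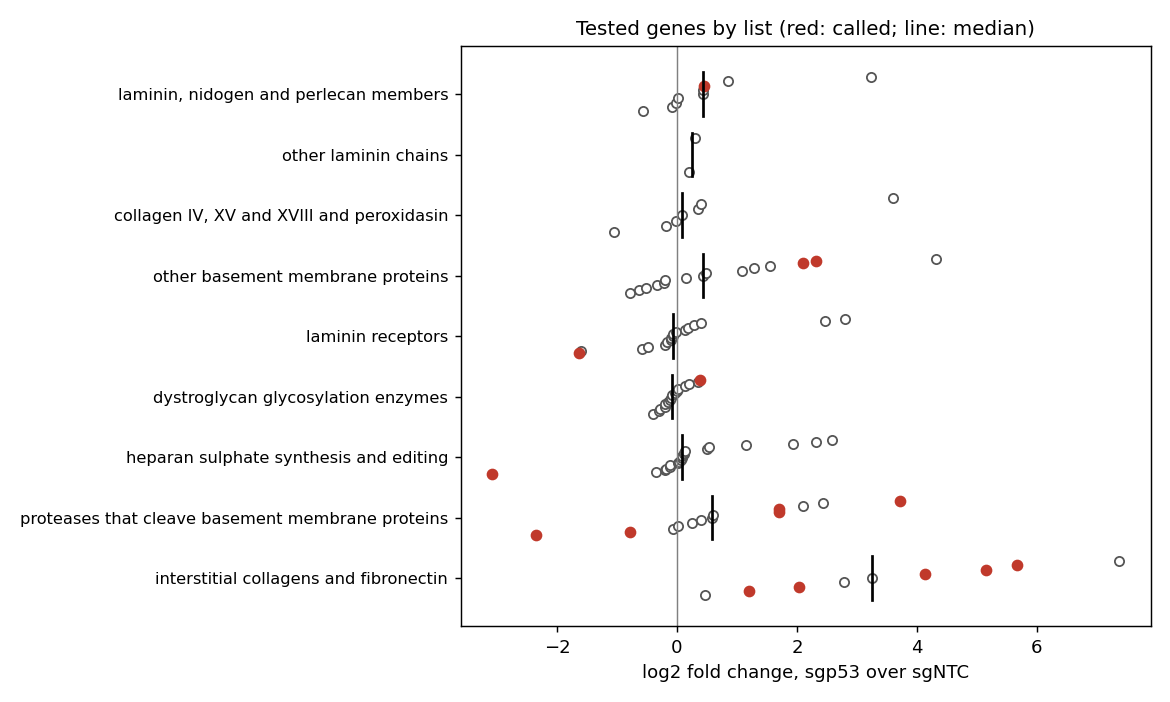
Log2 fold change of sgp53 over sgNTC (x axis) of each tested gene in the 9 members and the 8 lists (y axis; red points are called, short lines are medians). The medians of the members and the basement membrane lists lie between -0.09 and 0.58, and the interstitial collagens lie to the right with a median of 3.25.

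By Pearson's r of log2 CPM over the 6 libraries, the gene most like each member was sought among 107 others of the members and lists. It was Fras1 for Hspg2 (r = 0.972), Pomt2 for Lama5 (0.952), Rpsa for Lama2 (0.979), Col15a1 for Lama4 (0.946) and for Lamb2 (0.985), Fbln1 for Lama1 (0.916), Bcam for Lamc1 (0.945), Lama2 for Nid1 (0.944) and Hs6st1 for Nid2 (0.869). With 6 libraries that share lines and groups, and so many genes searched, high values of r are a description only. Rpsa, a ribosomal protein that also binds laminin, has near-identical pseudogene copies, so its counts are uncertain.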

How the data were processed

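The authors deposited raw read counts per gene symbol, 1 column per library, with no normalization. CASAVA 1.8, STAR, DESeq2 and the build mm10 appear in the submitters' processing notes with no role. Which program counted the reads, on which annotation and with which strand setting, is not given in the sources used here. The kit was stranded, per the labels' protocols. Of 23420 rows, 5885 had no count, 27 held names turned into dates, and 0 columns belonged to unknown samples.

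Counts were normalized by TMM, filtered with filterByExpr and tested with edgeR 4.0.16 (R 4.3.3) across all genes on 2 groups, with 4 residual degrees of freedom and Benjamini-Hochberg adjustment. SE is the fold change over the square root of F. Differences within a line use log2 CPM with a prior count of 2. DESeq2 1.42.0, limma 3.58.1 (voom), other scalings and filters, the line as a block and left-out libraries were alternatives. The line pairs the libraries, since same-numbered libraries come, per the labels, from 1 cell line; their deviations correlated at 0.0893, 0.00177 and -0.0272 in lines 1, 2 and 3.

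Exon lengths are unions of GENCODE M21 exons (GRCm38). Gene coordinates are RefSeq on GRCm38.p6, the assembly behind mm10. The edgeR script was tested on simulated data. Members and lists were chosen with earlier results of these data known. Named genes are the members, Trp53, up to 3 called genes of smallest adjusted p per list (in lists without a call, the 2 with the highest mean CPM at most) and the gene most like each member; others are said to be named after their values were seen. 1 gene of the lists is not reported here.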

Additional observations from a re-analysis of the deposited data

How the results depend on the processing

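EdgeR called 841 genes, DESeq2 2367, edgeR with the line as a replicate block 311, and leaving out libraries or lines gave 19 to 700. The members called were 1, and 4 with DESeq2, 0 with the replicate block and 0 to 1 with a library or line left out. The genes called in the 8 lists were 15, and 0 to 19 with a library or line left out. With DESeq2 they were 34, beside 18.2% of all genes in that fit. With library totals alone as the scaling, 296 genes were higher and 612 lower, against 360 and 481. The other scalings and filters left these counts within 1.5 times, and no alternative reversed the members' median (0.25 to 0.45) or an alpha chain share. Leaving out a line leaves 2 libraries a group, and the cause of lost calls beyond that was not tested.

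Of 509 log2 fold changes recomputed for 32 named genes under 16 alternatives, 400 kept direction and side of the threshold, 85 lost a call, 6 gained one and 18 changed sign; the sign changes were all in genes not called. Lama1 was -0.029 with library totals alone and -0.16 to 0.28 with libraries or lines left out. Nid2 was 0.013 with the replicate block, 0.0096 with limma-voom and -0.28 to 0.28 with libraries left out. With libraries left out, Fbln1 was -0.063 to 0.52 and Hs6st1 -0.11 to 0.21. Lama3 had no value in settings that filtered it out. In the replicate block no further named call was lost than those given in the report.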
